A study of Mus musculus with 61 samples.

Results

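Pcp2, Calb1, Car8 and Itpr1, 4 genes known for their expression in cerebellar Purkinje cells, were followed through 61 fractions of the mouse brain. They are 4 of the 16358 genes that could be named on the array. A probe was assigned to a gene through the RefSeq transcript given in the files, and of the 7 probes of these genes each gene was represented by its brightest on average (A_52_P643832 for Pcp2, A_51_P335801 for Calb1, A_52_P625118 for Car8 and A_51_P269663 for Itpr1). All 4 probes were well above background in all 61 fractions, and none was saturated.

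The brains came from 6 male C57BL/6J mice, 8 weeks old, with 1 mouse per series, perfused with RNAlater under anesthesia. Each frozen brain was cut from end to end into fractions of 200 sections of 5 µm, which makes a fraction 1 mm wide, and the RNA of each fraction was labeled with Cy3 and hybridized to 1 Agilent whole mouse genome array. The S (9 fractions) and So (10) series were cut sagittally from left to right, C (13) and Co (16) coronally from caudal to rostral, and H (6) and Ho (7) horizontally from dorsal to ventral, where So, Co and Ho were cut at a slightly oblique angle. Fractions are named by their place in the series, and S1 to S9 carry the numbers 2 to 10 in the labels. A fraction is thus a slab through every structure at its level and not a dissected region. In such slabs, fewer Purkinje cells and less RNA per Purkinje cell cannot be told apart. Per array, 57.9% to 73.1% of all probes exceeded the background clearly.

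Purkinje cells are the large GABAergic output neurons of the cerebellar cortex. They receive glutamate from the parallel fibers of granule cells and from climbing fibers, and signaling through phospholipase C in their dendrites produces inositol trisphosphate (IP3), which opens a calcium channel of the endoplasmic reticulum. Itpr1 encodes this IP3 receptor, Car8 a carbonic anhydrase-related protein without enzyme activity that binds the receptor and lowers its affinity for IP3, Calb1 the calcium buffer calbindin, and Pcp2 a regulator of G proteins of the Gi/o class that is restricted to Purkinje cells and retinal bipolar cells. Calb1 and Itpr1 are also used by neurons of the forebrain, such as those of the striatum, hippocampus and cerebral cortex.

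The Pcp2 promoter is the sequence commonly used to direct transgenes to Purkinje cells, and the 250 bases before its most upstream annotated start are shown because Pcp2 is, with Car8, the most regionally restricted of the 4 genes. They lie at chr8:3625548-3625797 on the minus strand (RefSeq, GRCm38.p6), in the 5′ flank of the gene. The capitals mark AGGTCA, the half-site bound by nuclear receptors of the ROR class, which was searched on both strands and begins 12 bases before the start.
Pcp2: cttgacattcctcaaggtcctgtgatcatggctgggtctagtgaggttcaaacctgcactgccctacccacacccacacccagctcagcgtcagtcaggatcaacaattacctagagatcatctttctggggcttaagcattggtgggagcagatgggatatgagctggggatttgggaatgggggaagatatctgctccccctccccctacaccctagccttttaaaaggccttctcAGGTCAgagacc
The motif was found once in this window. Of the 32851 windows of the same length before annotated mouse starts, 14.0% held it on either strand. Of the 16 other Purkinje cell genes listed below with such a window, 4 (25%) held it in at least 1 window, against 15.8% of the 27025 genes with a window. Of the 4 genes followed here, only Pcp2 had an entry among the promoter sequences used.

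Values are given on the log2 scale as the intensity of the probe minus the 75th percentile of its array, so that 0 is the level that 25% of the probes exceed. Probes differ in brightness, so the levels of different genes are not set against each other. The fractions of C and Co, S and So, and H and Ho that match each other by their profile over all probes form 28 pairs of 56 arrays, from 2 mice each, and these pairs served as replicates. The 5 fractions without a partner are So1, Co1, Co13, Co16 and Ho1. Differences between groups of pairs are given with their standard error (SE), and p-values are from limma's moderated tests with Benjamini-Hochberg adjustment over the 36573 probes detected on at least 1 array, called at an adjusted p under 0.05. The p-values measure the spread between partner fractions, pooled over all 28 pairs. The pairs of a plane come from the same 2 mice, cut at somewhat different angles, but count as independent in the test.

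All 4 genes varied over the 28 pairs, with F = 30.8 for Car8 (adjusted p = 2.39e-13), 29.4 for Calb1 (4.13e-13), 26.1 for Pcp2 (1.63e-12) and 23.4 for Itpr1 (5.85e-12). Variation over the pairs was common, as 61.3% of the detected probes were called. The size of the variation separated the genes into pairs. The log2 intensity spanned 6.43 for Car8 and 6.31 for Pcp2 from the lowest to the highest fraction, and 4.34 for Calb1 and 3.37 for Itpr1. Expressed as intensities these spans were 86.4-fold, 79.3-fold, 20.2-fold and 10.3-fold. Pcp2 and Car8 reached 80% of their maximum intensity in the same 3 fractions, Co3, Co4 and Co5. Calb1 did so in C2 and C3 besides, and Itpr1 in C2, C3, C4, Co3 and Co5.

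**Figure D1:**
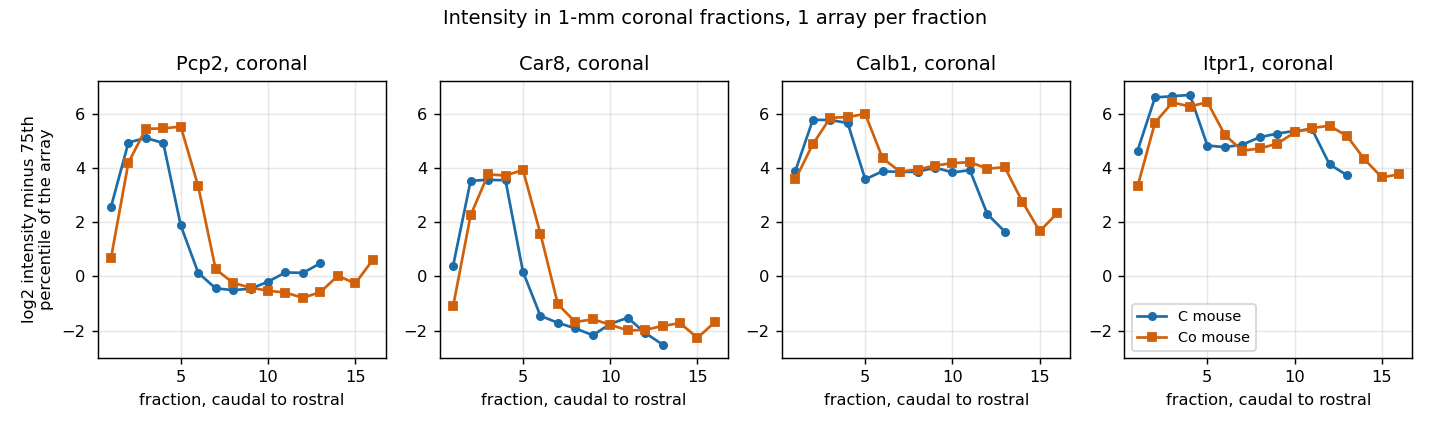
Log2 intensity minus the 75th percentile of the array (vertical axis) of Pcp2, Car8, Calb1 and Itpr1 in the coronal fractions, numbered from caudal to rostral (horizontal axis), with 1 point per array and 1 line per mouse (C circles, Co squares). All 4 genes have a plateau at C2 to C4 and Co3 to Co5, Pcp2 and Car8 are low in front of it, and Calb1 and Itpr1 keep an intermediate level until they fall near the rostral end. Levels of different genes cannot be compared, since each has its own probe.

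The coronal series cross the cerebellum near their caudal end. Pcp2, the G protein regulator, measured 2.55, 4.93, 5.10 and 4.91 in C1 to C4 and 4.19, 5.44, 5.45 and 5.52 in their partners Co2 to Co5. In the 9 pairs in front, it ranged from −0.51 to 1.88 with a median of 0.13 in C, and from −0.79 to 3.32 with a median of −0.26 in Co. Within the paired fractions of each mouse, all caudal values were above all rostral ones. The share of all probes without such overlap is not given here, so its rarity is not known. Between the mice the groups overlapped in that Co6 (3.32) exceeded C1 (2.55). The unpaired Co1, the most caudal fraction of Co, measured 0.66 and lay below Co6. The mean of the 4 caudal pairs exceeded that of the 9 rostral pairs by 4.66 ± 0.22 (SE), or 25.2-fold (adjusted p = 2.49e-17, limma). Such a call is not rare, since 31% of the detected probes were called higher and 20.6% lower in the caudal pairs. With the median of each array in place of the 75th percentile, every caudal minus rostral value moved by −0.12, and 44.7% instead of 60.1% of the called probes were higher. Among the 11980 genes well above background on all 26 paired coronal arrays, Pcp2 stood at place 10 and Car8 at place 11 by this difference, after genes such as the granule cell gene Gabra6 (6.29) at place 1.

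Car8, the inhibitor of IP3 binding, followed Pcp2. It measured 0.40, 3.52, 3.56 and 3.54 in C1 to C4 and 2.25, 3.76, 3.72 and 3.92 in Co2 to Co5. In front of them it ranged from −2.51 to 0.17 in C and from −2.27 to 1.57 in Co, with medians of −1.75 and −1.72. The values of the paired fractions again did not overlap within a mouse and overlapped between C1 and Co6. The unpaired Co1 (−1.10) lay within the rostral range of Co. The difference was 4.61 ± 0.20, or 24.4-fold (adjusted p = 2.42e-18).

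Calb1, the calcium buffer, measured 3.89, 5.77, 5.77 and 5.65 in C1 to C4 and 4.87, 5.85, 5.87 and 5.99 in Co2 to Co5. In the rostral pairs it had a median of 3.85 in C and 3.97 in Co, with a lowest value of 1.65 in C13 and a highest of 4.35 in Co6. C1 lay within the range of the rostral fractions, and the other paired caudal fractions lay above it. The difference was 1.91 ± 0.10, or 3.75-fold (adjusted p = 2.27e-16).

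Itpr1, the IP3 receptor, measured 4.63, 6.60, 6.64 and 6.69 in C1 to C4 and 5.67, 6.41, 6.26 and 6.42 in Co2 to Co5. In the rostral pairs it ranged from 3.73 to 5.42 in C and from 3.65 to 5.55 in Co, with medians of 4.85 and 4.89. C1 again lay among the rostral fractions. The difference was 1.32 ± 0.08, or 2.50-fold (adjusted p = 1.62e-14). With the slide as a fixed block it was 0.85 with an adjusted p of 0.18, whereas the differences of the other 3 genes stayed called there (4.64 for Pcp2, 4.43 for Car8 and 1.97 for Calb1). In C the caudal fractions C1 to C4 filled 1 slide of their own, so slide and position cannot be told apart in that mouse. The only coronal slide with paired fractions of both groups held Co5 to Co8, where Pcp2 measured 5.52 in Co5 and 3.32, 0.27 and −0.24 in Co6, Co7 and Co8, and Itpr1 6.42 in Co5 and 5.22, 4.63 and 4.71.

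The order of the levels along the axis was read against the spread between partners. The SD between paired fractions was 0.54 for Pcp2, 0.49 for Car8, 0.24 for Calb1 and 0.19 for Itpr1, and a step between neighboring coronal pairs was called beyond that spread when it exceeded the 95% limit of 1.11, 1.00, 0.49 and 0.40, respectively. For Pcp2 and Car8, 3 of 12 steps did so, namely the rise from C1/Co2 to C2/Co3 and the falls at C4/Co5 to C5/Co6 and C5/Co6 to C6/Co7. The pairs from C6/Co7 to the rostral end then differed from their neighbors by less than the limit in both genes.

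For Calb1 and Itpr1, 4 of 12 steps exceeded the limit. The fall of Calb1 and Itpr1 in front of the cerebellum exceeded it in 1 step (−1.85 and −1.54, C4/Co5 to C5/Co6), while Pcp2 fell by 2.62 and then fell by 2.40. The other large steps of Calb1 and Itpr1 lay near the rostral end, where olfactory bulb genes such as Doc2g peak (5.87 in C13), at C11/Co12 to C12/Co14 (−1.42 and −1.26) and at C12/Co14 to C13/Co15 (−0.87 and −0.53). Between these ends the pair means of Calb1 lay between 3.87 and 4.09. Those of Itpr1 went from 4.70 at C6/Co7 to 5.48 at C11/Co12, in steps that were each below the limit.

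The partners that disagreed most were those of the most caudal pair. Co2 exceeded its partner C1 by 1.64 for Pcp2, 1.85 for Car8, 0.99 for Calb1 and 1.04 for Itpr1, the largest difference of each gene. Over all 28 pairs the median size of the difference was 0.57, 0.34, 0.16 and 0.13. Co1, which has no partner, was lower than Co2 in all 4 genes, with 0.66 for Pcp2, −1.10 for Car8, 3.58 for Calb1 and 3.32 for Itpr1. For Itpr1 this was the lowest value of the 61 fractions.

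The caudal minus rostral difference itself was compared between the genes from the log ratio of their probes on each array, in 6 comparisons. By the brightest probes it did not differ measurably between Pcp2 and Car8 (0.05, 95% interval −0.19 to 0.29). It was larger for Pcp2 than for Calb1 by 2.75 (2.41 to 3.09) and than for Itpr1 by 3.34 (2.93 to 3.74). The value of Calb1 minus that of Car8 was −2.70 (−2.97 to −2.43), and Car8 exceeded Itpr1 by 3.29 (2.95 to 3.63). Calb1 exceeded Itpr1 by 0.59 (0.42 to 0.76), and by 1.12 when slides were fitted as fixed effects. These intervals are not adjusted for the number of comparisons, and they hold for the brightest probe of each gene only. By the other probes the caudal minus rostral difference was 5.74 ± 0.27 for Pcp2 and 4.37 ± 0.23 for Car8. The likeness of Pcp2 and Car8 in size thus depends on the probe, and the other probes were not compared between genes. In single mice, over all fractions of the series and with Co1 counted as caudal, the difference was 4.25 in C and 4.18 in Co for Pcp2, 4.42 and 3.96 for Car8, 1.84 and 1.65 for Calb1, and 1.31 and 0.83 for Itpr1.

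**Figure D2:**
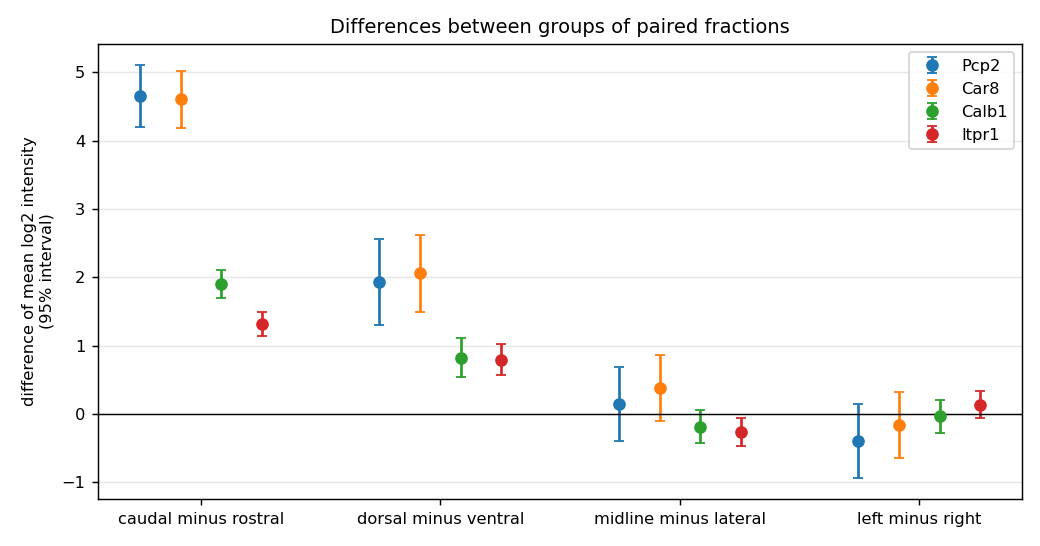
Differences of mean log2 intensity between groups of paired fractions (vertical axis, points) with their 95% intervals from the limma fit (bars), for the 4 contrasts along the body axes (horizontal axis). Caudal minus rostral is near 4.6 for Pcp2 and Car8 and below 2 for Calb1 and Itpr1, dorsal minus ventral is above 0 for all 4 genes, and the other contrasts lie near 0.

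In the horizontal plane all 4 genes were higher in the dorsal fractions. Pcp2 measured 3.34, 3.86 and 3.77 in H1 to H3 and 3.90, 3.91 and 3.66 in Ho2 to Ho4, against 2.11, 0.42 and 1.55 in H4 to H6 and 2.71, 1.92 and 2.12 in Ho5 to Ho7. These groups of paired fractions did not overlap, and neither did those of the other 3 genes. For this plane too, the share of all probes without overlap is not given. The dorsal minus ventral difference was 2.06 ± 0.28 for Car8 (4.17-fold, adjusted p = 2.68e-06), 1.93 ± 0.31 for Pcp2 (3.82-fold, 3.12e-05), 0.83 ± 0.14 for Calb1 (1.78-fold, 5.93e-05) and 0.80 ± 0.11 for Itpr1 (1.74-fold, 6.81e-06). Of all detected probes 5.2% were called higher and 7.38% lower dorsally, and the share of higher ones among the called was 41.3%, or 55.5% with median scaling. With the mouse of each plane as a replicate block, 9178 probes instead of 4599 were called in either direction, and the same 4 members.

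This result depended on the pairing of the fractions. When each H fraction was paired with the Ho fraction of its own number, which moves the border in Ho by 1 fraction, none of the 4 was called (adjusted p between 0.10 and 0.29, differences between 0.72 and 1.32). Ho1, the most dorsal fraction without a partner, measured 0.97 for Pcp2 and −1.17 for Car8, the lowest values of that series, but 4.78 for Calb1 and 5.50 for Itpr1, against medians of 4.78 and 5.46 in the series. The cortical genes Cux2 and Rorb had their highest values of the 61 fractions in Ho1 (1.26 and −0.69). When slides were fitted as fixed effects, Itpr1 was not called (1.03, adjusted p = 0.074), and the other 3 were (adjusted p between 0.026 and 0.043). Within the 1 slide that held fractions of both groups, Pcp2 measured 3.77 in H3 against 2.11, 0.42 and 1.55 in H4 to H6.

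Pcp2 and Car8 were low at the lateral ends of S and at the left end of So, and not at the right end of So. Pcp2 measured 1.48 in S1, 4.25 in S2, 3.99 in S3, 3.57, 3.56 and 3.45 in S4 to S6, 3.78 in S7, 3.98 in S8 and 2.21 in S9. In So it measured 0.92 and 0.27 in So1 and So2 and between 2.98 and 3.75 in So3 to So10. Car8 was likewise below 0 in S1, S9, So1 and So2 and between 1.31 and 2.03 in all other sagittal fractions. The right end of So, So10, held the highest value of that series for Pcp2. In Calb1 and Itpr1 the lateral ends stood apart less. Calb1 was lowest of the S series in S1 (4.69) and S9 (4.64), with a range of 4.74 to 5.42 between them. In So it was lowest in So2 (4.30) and highest in So10 and So1 (both 5.27). Itpr1 spanned 0.72 in S and 0.69 in So.

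No member was called between the midline pairs (S4 to S6 and their partners) and the lateral ones. The midline minus lateral difference was 0.39 ± 0.24 for Car8, 0.15 ± 0.26 for Pcp2, −0.18 ± 0.12 for Calb1 and −0.26 ± 0.10 for Itpr1 (adjusted p = 0.36, 0.85, 0.40 and 0.075, limma, with 1 member, Itpr1, at an unadjusted p under 0.05), where 7.67% of the detected probes were called higher and 6.26% lower, 13.9% in all (55.1% higher among the called, 34.3% with median scaling). Of the members, 2 came to a call under another setting, Itpr1 with median scaling (−0.34, adjusted p = 0.012) and Car8 when S3 to S7 and their partners were taken as the midline (0.74, adjusted p = 0.017). The left and right pairs did not differ detectably either, with differences between −0.40 ± 0.26 for Pcp2 and 0.14 ± 0.10 for Itpr1 and adjusted p between 0.82 and 0.99 (limma, 0 members at an unadjusted p under 0.05). Only 0.041% of the probes were called higher and 0.112% lower on the left (26.8% higher among the called, 44.8% with median scaling). In the oblique So series the lateral fractions of the sides differed more for Pcp2 (0.27 in So2 and 3.75 in So10) than in S (1.48 in S1 and 2.21 in S9).

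**Figure D3:**
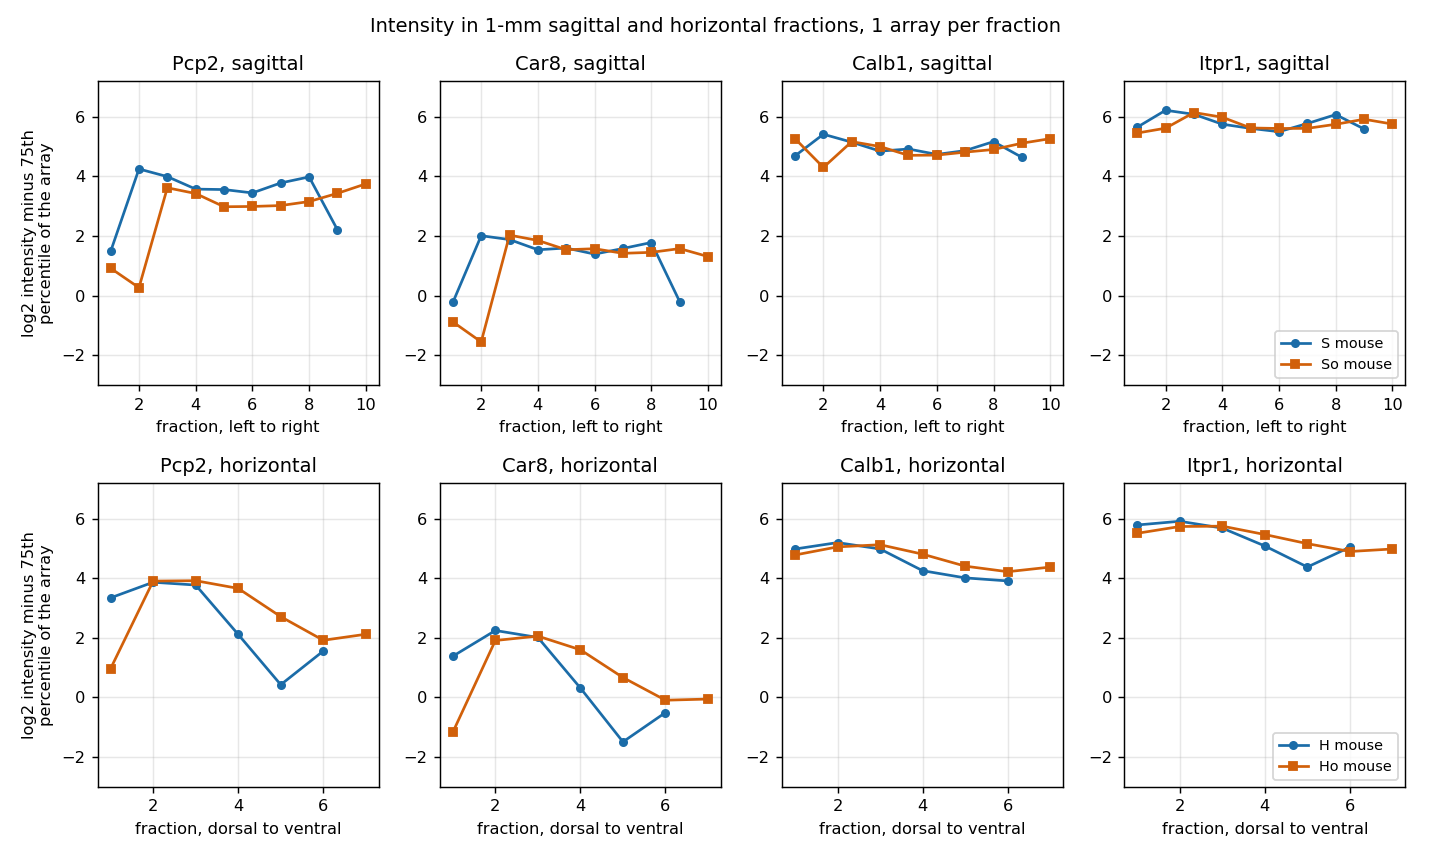
Log2 intensity minus the 75th percentile of the array (vertical axes) of the 4 genes in the sagittal fractions, numbered from left to right (upper row), and in the horizontal fractions, numbered from dorsal to ventral (lower row), with 1 point per array and 1 line per mouse (S and H circles, So and Ho squares). Pcp2 and Car8 drop at S1, S9, So1, So2 and Ho1, where Calb1 and Itpr1 change less.

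The mice of a plane were compared in a model that also held the pairs. Calb1 was higher in Co than in C by 0.28 ± 0.08 (adjusted p = 0.0033), where 26.1% of the probes were called higher and 27.4% lower, 53.4% in all. The call was lost with the slide as a random block (0.27, adjusted p = 0.053) and when the series means were compared without the replicate block (adjusted p = 0.58). The other members were not called between C and Co (0.39 ± 0.18 for Car8, 0.21 ± 0.19 for Pcp2 and 0.04 ± 0.08 for Itpr1), but the second probes of Car8 and Pcp2 were (0.57 and 0.62, adjusted p = 0.011 and 0.013). In So against S and in Ho against H no member was called (limma, none at an unadjusted p under 0.05 either), with Pcp2 farthest from 0 (−0.40 ± 0.23 and 0.53 ± 0.28, adjusted p = 0.21 and 0.34). In these comparisons 12.4% and 3.92% of the probes were called higher and 17.5% and 1.6% lower, 29.9% and 5.52% in all (41.4% and 71.0% higher among the called, 63.1% and 58.8% with median scaling). Mouse, cutting angle and, for C and Co, scan day cannot be told apart. For S and So this nearly holds for the scan day too, since S1 alone shared it with the So arrays, and with the day as a block So minus S was −1.21 for Pcp2 (adjusted p = 0.47) and −1.32 for Car8 (0.32).

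The caudal minus rostral difference was not called between Co and C in any member. For Pcp2 it was larger in Co by 0.82 ± 0.40 (adjusted p = 0.24), where 2.65% of the probes were called higher and 4.43% lower, 7.09% in all. At an unadjusted p under 0.05, 1 member passed, which was Pcp2. Without C1 and its partner Co2 the values of Car8, Calb1 and Itpr1 were −0.02, −0.06 and −0.31.

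Pcp2, Car8 and Itpr1 each had a second probe. Over the 61 fractions it correlated with the first with r = 0.991 for Pcp2, 0.982 for Car8 and 0.979 for Itpr1. Both Pcp2 probes had their highest value in Co5. In the 18 coronal fractions from C6 and Co7 forward, the first ranged from −0.79 to 0.61 and the second from −2.96 to 0.20. The caudal minus rostral difference was 5.74 ± 0.27 and the span 8.51 by the second probe, against 4.66 and 6.31 by the first. For Car8 and Itpr1 the second probe gave 4.37 ± 0.23 and 1.40 ± 0.10.

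The profiles of Pcp2 and Car8 correlated with r = 0.983 over the 61 fractions (log2 intensities, Pearson) and with r between 0.970 and 0.998 within each of the 6 mice. For Calb1 and Itpr1, r was 0.911 over all fractions and between 0.350 (So) and 0.989 (Ho) within the mice. Between these pairs of genes r was lower, with 0.765 for Pcp2 and Calb1, 0.711 for Pcp2 and Itpr1, 0.819 for Car8 and Calb1 and 0.768 for Car8 and Itpr1. In the 18 coronal fractions in front of the cerebellum, r was −0.609 between Pcp2 and Calb1, −0.691 between Pcp2 and Itpr1, 0.163 between Pcp2 and Car8, 0.521 between Calb1 and Car8, 0.260 between Car8 and Itpr1 and 0.914 between Calb1 and Itpr1, so that the negative values were those of Pcp2. There Pcp2 ranged only from −0.79 to 0.61, and r was not computed for its second probe (−2.96 to 0.20). Neighboring fractions of a brain share tissue and arrays share slides, so these coefficients describe the profiles and carry no p-value.

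**Figure D4:**
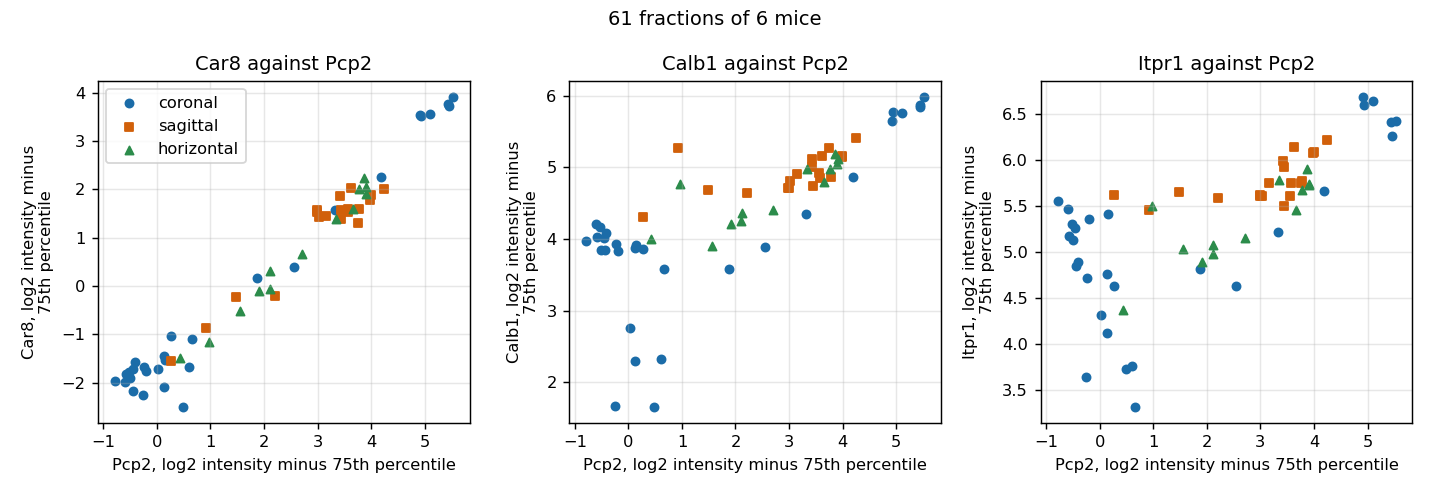
Log2 intensity minus the 75th percentile of the array of Car8, Calb1 and Itpr1 (vertical axes) against Pcp2 (horizontal axes) in 61 fractions, with 1 point per array and the plane as symbol. Car8 lies along a line with Pcp2 (r = 0.983), and Calb1 and Itpr1 spread over several log2 units where Pcp2 is lowest.

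Among 13040 other genes that were well above background on at least 30 arrays, the profile most like that of Pcp2 was found for Pkp3, a plakophilin of cell junctions (r = 0.989), Crtam (0.985), Car8 (0.983), the granule cell GABA-A receptor subunit Gabra6 (0.982) and the Purkinje cell phosphatase inhibitor Ppp1r17 (0.976). For Car8 they were Hes3 (0.983, well above background on 43 arrays), Pcp2 (0.983), Neurod1 (0.976), En2 (0.975) and Pkp3 (0.974), which include transcription factors of granule cells and of the mid-hindbrain region. For Calb1 they were Bcar1 (0.936), Plk5 (0.930), Itpr1 (0.911), Rgs8 (0.903) and Pvalb (0.896), and for Itpr1 Cadps2 (0.917), Mtcl1 (0.912), Calb1 (0.911), Thegl (0.908) and Tmem178 (0.905). In the ranking for Pcp2, Calb1 was at place 220 and Itpr1 at place 334.

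Other genes of Purkinje cells mostly moved in the same direction. Of 23 other Purkinje cell genes with a probe, 19 were called higher in the caudal pairs, 3 lower and 1 was not called, with a median difference of 2.12 against 0.06 over all genes. Over all genes with 1 probe each, 29.7% were called higher and 25.6% lower. Among the 22 listed genes measured above background on all 26 paired coronal arrays, the values went from En2 (5.13), a transcription factor of the mid-hindbrain region, to Itpka (−1.35 ± 0.09), a kinase that phosphorylates IP3 and is abundant in forebrain neurons. The glutamate transporter Slc1a6 differed by 3.01, the scaffold Homer3 by 2.89 and the nuclear receptor Rora by 1.22, all called. Pcp4 (−0.05, adjusted p = 0.62) was not called. Dorsally 16 of the 23 were called higher and none lower (limma).

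The pathway in which Itpr1 and Car8 act held genes called in both directions. Of 27 genes of signaling through G proteins, IP3 and calcium, 18 were called higher caudally, 6 lower and 3 not, with a median of 0.65. The lower share (6 of 27) is near the 25.6% over all genes. The phospholipase Plcb4 was higher by 1.62 ± 0.27, the IP3 phosphatase Inpp5a by 1.74 ± 0.10 and the calcium pump Atp2a3 by 2.04 ± 0.13. The largest value was that of the calcium buffer Pvalb (2.96 ± 0.13) and the lowest that of the scaffold Homer1 (−1.999 ± 0.095), whereas Homer3 rose (2.89). Among the G protein subunits, Gnaq (−0.20) and Gna11 (−0.41) were both lower.

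Of 16 relatives of the 4 genes by family, 9 were called higher caudally, 4 lower and 3 not (median 0.54), where the lower share again is near that over all genes. The other IP3 receptors, Itpr2 and Itpr3, were higher by 0.16 and 0.76, against 1.32 for Itpr1, and the value of Itpr2 is close in size to the shift of −0.12 between the scalings. Of the listed carbonic anhydrases besides Car8, the largest difference was that of Car4 (1.53) and the lowest that of Car11 (−1.45). Of the calcium-binding proteins, Pvalb was the highest with 2.96 and Calb2 differed by 1.64. Of the modulators with GoLoco motifs, a class that includes Pcp2, Gpsm1 was not called (0.13) and Gpsm2 was lower by 1.07.

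**Figure D5:**
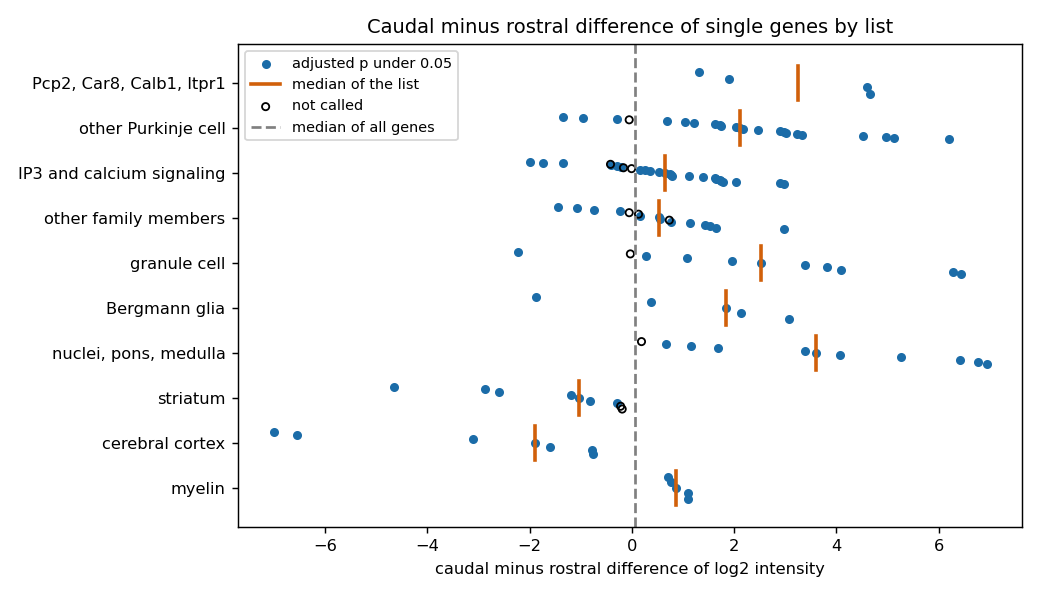
Caudal minus rostral difference of log2 intensity (horizontal axis) of single genes, grouped by list (vertical axis), with filled points for genes called at an adjusted p under 0.05, open points for genes not called, a bar at the median of each list and a dashed line at the median of all genes (0.06). Purkinje cell, granule cell and hindbrain lists lie mostly to the right and striatal and cortical lists to the left, where genes not above background on all arrays of a group, such as most of the hindbrain list, have fitted values only.

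Most listed markers of the other cells in these slabs were also called higher caudally, against 29.7% of all genes. Of 11 granule cell genes, 9 were called higher caudally, 1 lower and 1 not (median 2.53), and their summed level, in multiples of the 75th percentile, ranged from 51.7 to 202 in the 8 caudal arrays and from 24.6 to 59.3 in the 18 rostral ones. Of 5 Bergmann glia genes 4 were higher and 1 lower (summed level 37.5 to 66.5 against 23.0 to 49.4). Of 11 genes of the cerebellar nuclei, pons and medulla 10 were higher and 1 was not called (3.04 to 16.0 against 0.21 to 3.21). All 5 myelin genes (233 to 378 against 89.3 to 240) and all 4 choroid plexus genes (0.36 to 14.6 against 0.33 to 8.73) were higher. Of 6 genes of cerebellar interneurons and Golgi cells, 4 were higher, 1 lower and 1 not called (5.41 to 8.91 against 1.86 to 4.13). The part of these lists in the values of the 4 genes was not tested.

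Most listed genes of cortex, striatum and hippocampus were called lower caudally, against 25.6% of all genes. Of 7 cortical genes 7 were lower caudally (median −1.90), of 9 striatal genes 7 were lower and 2 not called (−1.04), and of 6 hippocampal genes 5 were lower and 1 higher (−2.12). Of 6 olfactory bulb genes 4 were lower and 2 higher (−1.07), and of 6 thalamic genes 3 were higher, 2 lower and 1 not called (0.70). A gene may stand on more than 1 list, such as Calb2, which is listed for thalamus and olfactory bulb, and Rora, for thalamus and Purkinje cells.

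In the horizontal plane these lists separated. Dorsally 8 of 11 granule cell genes were called higher and 3 not, as were the 4 members, whereas of the 11 genes of the cerebellar nuclei, pons and medulla 8 were called lower and 3 not (median −2.45). Of these 11 genes, 3 were above background on all 26 paired coronal arrays, so the median is a fitted value. All 5 myelin genes were also lower (median −0.80). Over all genes 6.19% were called higher and 10.6% lower dorsally. In the sagittal plane 8 of the 11 genes of the cerebellar nuclei, pons and medulla were called higher at the midline (median 2.22). Of the 23 other Purkinje cell genes 2 were (median 0.17), against 9.63% of all genes.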

How the data were processed

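The authors deposited, for each of 61 arrays, the spot intensity after background subtraction by Agilent Feature Extraction (version 9.1 per the labels), with no normalization between arrays, and a table of intensities normalized per array, whose column medians lay between 1.76 and 1.98 on the linear scale. Within 0.001 (log2), 99.9% of its values differ from the spot intensities by 1 constant per array. Here, the deposited intensities were put on the log2 scale, spots of 1 probe were averaged to give 41174 probes, and the 75th percentile of the array (740 to 1971 units) was subtracted. The number of arrays limits the precision. RefSeq accessions named 22951 probes.

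limma 3.58.1 in R 4.3.3 was fitted to the 36573 probes with a spot well above background on at least 1 array (27 numerator, 28 residual and 1.88 prior degrees of freedom). The methods of the study use an analysis of variance across these pairs, a test of the form of the alternative without moderation, on other inputs. Fractions of a series come from 1 mouse, so the mouse pairs them: deviations from the pair means had a median r of 0.278 over 129 combinations of the same mice and −0.026 over 249 of different mice, and the mouse was a replicate block in an alternative. The fit was tested on simulated data with independent noise and no effect of mouse or slide, so this test does not cover such effects.

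The genes named are the 4 members, the genes of the lists and, for each member, the 5 genes of the most similar profile. The members and lists were chosen with earlier results of these data known. Of the entries in the 14 gene lists, 12 had no probe with a RefSeq name. The values of some list genes are not reported here. The alternatives were another scaling, the normalized table, normexp with an offset of 50 and quantile normalization, a floor of 5, the filter on dim probes, no moderation, blocks of mouse, slide (16) and scan day (5), pairing by own number (place in the series), an adjusted p of 0.01, other borders, other probes and leaving out each of 56 arrays. Analyses used Python 3.11.15, numpy 2.4.6, pandas 2.3.3, scipy 1.17.1 and matplotlib 3.10.9.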

Additional observations from a re-analysis of the deposited data

How the results depend on the processing

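The caudal minus rostral call of Pcp2, Car8 and Calb1 and the variation over the pairs of all 4 genes held under every alternative run, and leaving out any of the 56 arrays changed no call of these results. Own-number pairing went by place in the series; by the numbers of the labels the sagittal pairs are those of the main analysis. It left 0 members called dorsally (limma; 4 in the main analysis) and 1 called, Itpr1, for caudal minus rostral in Co against C, with reversed values of −0.97 (Pcp2), −1.55 (Car8), −1.09 (Calb1) and −1.16 (Itpr1); there Itpr1 was −0.018 with the slide as a random block. With median scaling, the authors' table, or S3 to S7 as the midline, 1 member was called between midline and lateral pairs, and leaving out single arrays gave 0 to 1 (1 without C1 or Co2, Itpr1). Between Co and C, 2 members were called with median scaling, the authors' table or only probes detected on all arrays, 3 with the other probes, 0 with the slide as a random block or without the replicate block, and 1 to 2 when arrays were left out (2, with Car8, without C10, C11, S1, S9, Co11, Co12, So2 or So10); leaving out S9 or So10 gave 1 call between So and S (Pcp2, −0.65, adjusted p = 0.018).

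Values that were not called changed sign with median scaling, the authors' table and normexp: left minus right of Calb1 (0.012, 0.011 and 0.011, and 0.11 with own numbers), So minus S of Calb1 (0.018, 0.019 and 0.0061), and Ho minus H of Itpr1 (−0.0061, −0.0074 and −0.061); So minus S of Car8 (0.051 and 0.051) and of Itpr1 (0.041 and 0.041) did so with the first 2 of these. Co minus C of Itpr1 was −0.018 with normexp and −0.026 with the other probe, and So minus S of Car8 was 0.18 with the other probe. With arrays left out, left minus right ran from −0.11 to 0.049 (Calb1) and −0.35 to 0.033 (Car8), Co minus C of Itpr1 from −0.046 to 0.072, So minus S of Car8 from −0.21 to 0.15, Ho minus H of Itpr1 from −0.083 to 0.064, and Co against C from −0.065 to 0.24 (Calb1), −0.020 to 0.54 (Car8) and −0.31 to 0.16 (Itpr1). The difference between members in caudal minus rostral, Calb1 minus Car8, moved from −2.70 to −2.31 with C1 to C3 as caudal, −2.35 with own numbers and −2.35 with normexp, that of Car8 minus Itpr1 from 3.29 to 2.85 with C1 to C3 as caudal, and that of Calb1 minus Itpr1 to 1.12 with the slide as a fixed block. Over all probes, 4951 instead of 18904 were called caudally, 1417 instead of 4599 dorsally, 11404 instead of 5093 at the midline, 2268 instead of 56 between left and right and 886 instead of 10929 between So and S with the slide as a fixed block. With the scan day as a fixed block, 10256 were called at the midline, 9808 dorsally, 848 between left and right, 657 between So and S, 3327 instead of 2020 between Ho and H and 4662 instead of 2592 between Co and C in caudal minus rostral. The slide as a random block gave 8151 at the midline, 5226 (So, S), 394 (Ho, H), 648 (Co against C) and none between left and right (limma), and the mouse as a block 9903 at the midline and 591 between left and right. Own-number pairing gave 1239 at the midline, 2091 dorsally, 14 between left and right, 6506 (So, S) and 324 (Ho, H), series means 12907 instead of 19542 (Co, C), 4333 (So, S) and 139 (Ho, H), normexp 1265 (Ho, H), and an adjusted p under 0.01 gave 3170 at the midline, 2860 dorsally, 29 between left and right, 7250 (So, S), 849 (Ho, H) and 1016 (Co against C). With the mouse as a replicate block the caudal minus rostral value of Pcp2 was 4.66 with an adjusted p of 5.96e-17, and no call of a member changed. The mouse comparisons of C and Co and of H and Ho could not be fitted with the slide as a fixed block, nor that of C and Co with the scan day. The cause of these changes was not tested. With 2 mice per plane and pairs matched on the same arrays, the spread between brains is thinly sampled.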
